A study of Homo sapiens with 11 samples.

Results

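Interferon-stimulated genes are the genes that cells switch on after interferon binds its receptors, and 47 of them were followed here across 11 Affymetrix HG-U133 Plus 2 arrays of A673sh cells. The genes were listed by name from textbook knowledge of the response, with earlier results of these data known, and each was represented by its probe set with a single symbol and the highest mean over the arrays. A named probe set was found for 46 of the 47 genes, among 19775 genes in all, and STAT2 was not analysed here. Of the 46, 38 passed a filter on low values, for which a gene had to lie at or above the 60th percentile on 1 array or more, and these 38 stood among 12299 genes tested. All values are log2 levels, so a difference of 1 is a doubling.

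A673sh is a derivative of a single Ewing sarcoma line, A673, that carries a doxycycline-inducible shRNA against EWS-FLI1, the fusion oncogene of this tumour. Every array came from transiently transfected cells, and untransfected cells were not among the samples. The groups were sh-FOXO1 cells with doxycycline (1 µg/ml for 48 h) and without it, sh-scrambled cells with and without the same doxycycline treatment (2 arrays each), cells given AKT-resistant FOXO1 (T24A, S256A and S319A, numbered along the FOXO1 protein) or CDK2-resistant FOXO1 (S249A and S298A), and cells given the empty pCDNA3 vector (1 array each, no doxycycline). The sh-FOXO1 plasmid lowers endogenous FOXO1, a forkhead transcription factor, and the mutants resist the phosphorylation that keeps FOXO1 inactive. EWS-FLI1 knockdown was read as sh-scrambled cells with against without doxycycline, and FOXO1 silencing as sh-FOXO1 against sh-scrambled cells. Doxycycline itself and loss of EWS-FLI1 cannot be told apart in these groups. The labels call the pairs replicas without naming separate cultures, so p-values measure only the spread between these arrays, which may be technical.

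Type I interferons signal through the receptor chains IFNAR1 and IFNAR2 and the kinases JAK1 and TYK2 to a complex that holds STAT2 and IRF9 and binds the interferon-stimulated response element. Interferon gamma signals through IFNGR1 and IFNGR2 to the gamma activated site and induces IRF1, itself an activator of many genes of the response. The products degrade or sequester viral RNA, block entry at membranes, conjugate the ubiquitin-like protein ISG15 to other proteins, or sense foreign nucleic acid, and tumour cells can keep part of this set switched on without infection.

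Both binding motifs were looked for in the RefSeq promoters (GRCh38.p14, 250 bases before to 50 after the start) of 38 of the 47 genes. The promoters of IFIT2, MX2, OAS2, OASL, IRF7, USP18, TRIM22, GBP2 and IFITM2 were not matched. The interferon-stimulated response element, searched on both strands as a pair of GAAA units with 2 bases of any kind between them, was found in 24 of the 38 promoters, against 3.65% of 27305 promoters in all. The gamma activated site, written TTCNNNGAA on both strands, was found in 12 of 38, against 7.88% of all promoters, and in 4 genes (BST2, EPSTI1, IFI27 and IFITM1) a match to one motif overlapped a match to the other. At least 1 of these motifs was found in 28 promoters, and 14 held more than 1 match to the response element. A forkhead motif, GTAAACA on both strands, was found only in the promoters of CMPK2 and SAMD9L, 2 of 38 against 3.41% of all, and a repeat of the ETS core, GGAAGGAA on both strands, in IFIT3, PARP9, SAMD9 and SP110, 4 of 38 against 3.58% of all. A match is a description of the letters and not a measured binding site.

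The windows below show the stretches with these matches for genes that the results turn on, namely 6 that were called upon EWS-FLI1 knockdown (ISG20, IFIT3, IFITM1, IRF1, IRF9 and HERC5), a pair that was not called (IFIT1 and ISG15), and a pair higher on the CDK2-resistant FOXO1 array (OAS3 and BST2). Each is read 5′ to 3′ in the direction of its gene with the matches in capitals. Capitals mark the response element in all except IRF1 and IRF9, where they mark the gamma activated site, and IFITM1 and OAS3 hold a further match nearer the start that lies outside the window. In order they lie at chr15:88638935-88638968 (plus strand), chr10:89327829-89327896 (plus), chr11:313988-314021 (plus), chr5:132490877-132490909 (minus), chr14:24161190-24161222 (plus), chr4:88456982-88457066 (plus), chr10:89392495-89392541 (plus), chr1:1013372-1013411 (plus), chr12:112938319-112938352 (plus) and chr19:17405733-17405772 (minus).
ISG20: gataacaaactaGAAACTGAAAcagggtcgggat
IFIT3: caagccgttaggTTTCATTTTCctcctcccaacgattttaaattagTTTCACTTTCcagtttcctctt
IFITM1: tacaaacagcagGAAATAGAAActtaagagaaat
IRF1: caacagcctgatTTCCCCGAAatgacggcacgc
IRF9: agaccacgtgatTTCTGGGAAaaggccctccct
HERC5: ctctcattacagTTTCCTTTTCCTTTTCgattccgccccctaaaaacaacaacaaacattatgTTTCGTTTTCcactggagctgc
IFIT1: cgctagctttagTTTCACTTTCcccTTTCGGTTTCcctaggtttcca
ISG15: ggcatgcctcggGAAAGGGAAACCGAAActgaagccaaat
OAS3: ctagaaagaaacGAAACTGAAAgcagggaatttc
BST2: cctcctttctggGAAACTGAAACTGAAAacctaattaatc

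ISG15 and IFIT1 thus carried 2 matches each and HERC5 3, while ISG20 carried 1 in its window. Of the 13 genes higher upon knockdown whose promoters were matched, 9 held the response element, and of the 18 other tested genes 12 did. For the gamma activated site the counts were 6 of 13 and 4 of 18.

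The 38 genes differed widely in level. Their median level was 6.78 against 7.75 over all genes tested, and 23 of them reached the 60th percentile on all 11 arrays, while 15 did so on some arrays only. IFITM3, which blocks virus entry at endosomes, spanned 8.94 to 11.46 over the arrays, and IFI16, a sensor of DNA, 10.12 to 11.26. At the other end, 8 genes never reached the filter and stayed between 3.57 and 5.46 on every array. These were MX1 and OAS2, RSAD2 (viperin), IFI27, XAF1, HERC6, EPSTI1 and TRIM22, several of them widely used as readouts of an interferon response. ISG15 had the narrowest range of the 38 tested genes, 8.29 to 8.67, and IFITM1 the widest, 6.38 to 9.48.

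**Figure D1:**
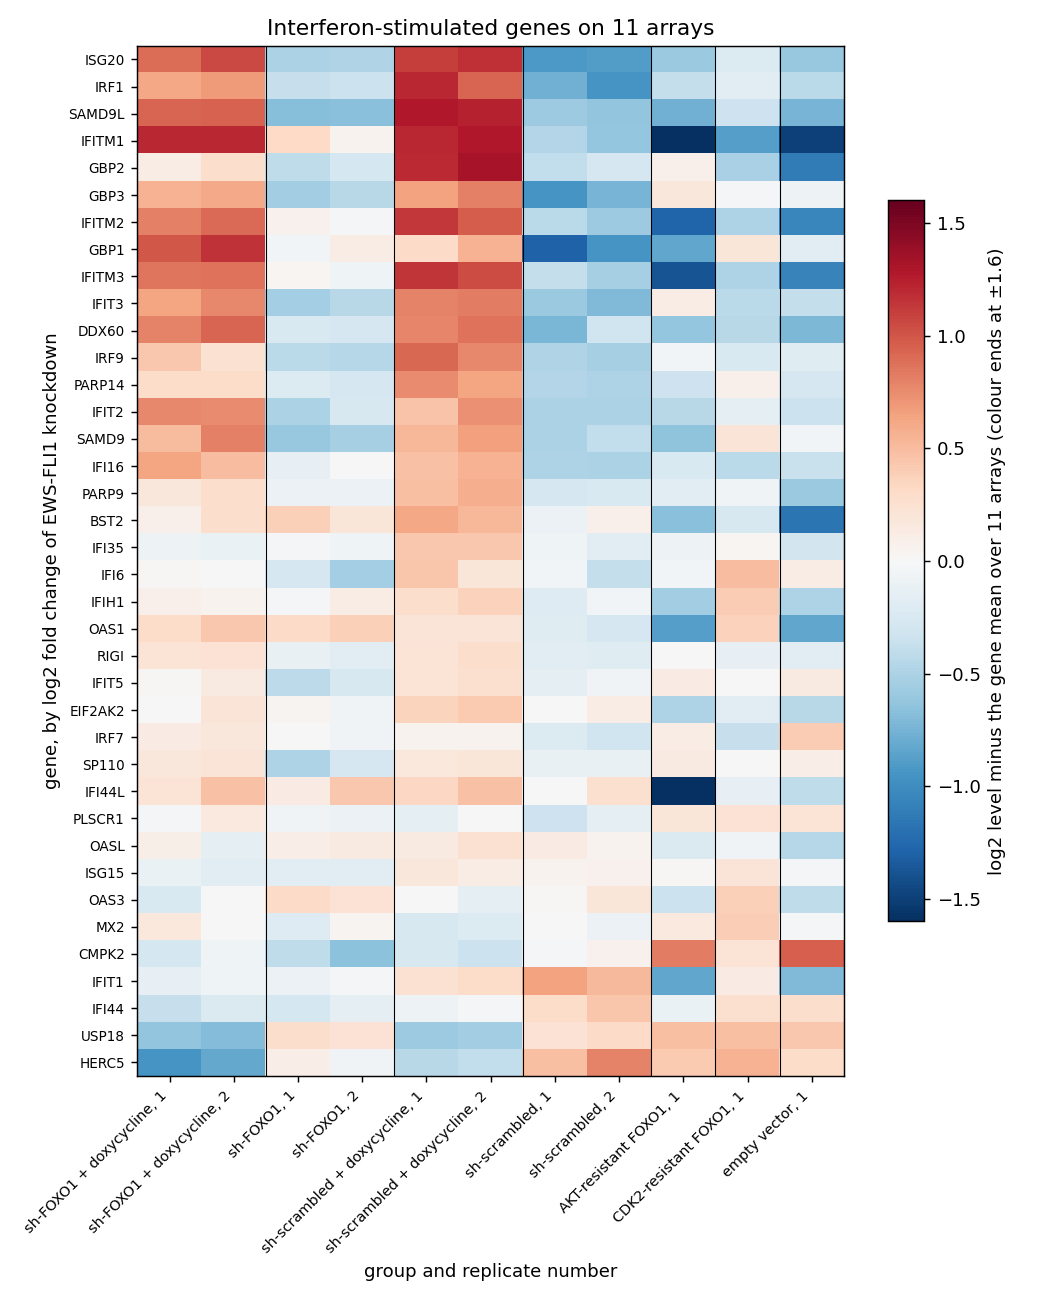
Log2 level of each of the 38 tested genes (rows, ordered by log2 fold change upon EWS-FLI1 knockdown) minus its mean over 11 arrays, on every array (columns, by group and replicate number). The upper rows are red on all 4 doxycycline arrays and blue on the sh-scrambled arrays without doxycycline, and the bottom rows, USP18 and HERC5, run the other way.

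The labels were borne out by the targeted genes. FLI1, which gives the fusion its DNA-binding part, was 7.17 and 7.25 in sh-FOXO1 cells with doxycycline and 6.92 and 6.93 in sh-scrambled cells with it, against 8.56 to 8.84 in the 4 shRNA arrays without it. FOXO1 was 5.75 and 5.76 in sh-FOXO1 cells and 7.04 and 7.35 in sh-scrambled cells with doxycycline, and 4.80 and 4.97 in sh-FOXO1 cells and 5.81 and 5.86 in sh-scrambled cells without it. The AKT-resistant array had 8.30 and the CDK2-resistant array 7.06, against 5.84 with the empty vector. Of 8 Ewing sarcoma markers, 7 passed the filter, and 6 of these fell upon EWS-FLI1 knockdown. PTPRC, which all blood cells carry, lay at 3.72 to 4.12, below the filter on every array. Array medians were 5.10 to 5.17.

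EWS-FLI1 knockdown raised 16 of the 38 genes more than 2-fold and lowered 1. Calls needed a log2 fold change past 1 beside an adjusted p (limma) under 0.05, which 6.98% of all genes tested met as higher and 6.31% as lower. The median log2 fold change was 0.54 over the 38 genes and -0.04 over all genes tested. The 21 genes not called ranged from -0.84 to 0.78. With no limit on the fold change, 27 were higher and 5 lower at the adjusted p. How many of all genes tested passed was not counted, here or in later counts with no limit or at an unadjusted p. Counting arrays instead, all 4 doxycycline arrays lay above all 4 shRNA arrays without it in 22 of 38 genes and below them in 3, against 21.2% and 28.3% of all genes tested. Of the 16 higher genes, DDX60 and SAMD9L reached the filter only on doxycycline arrays, and so entered the test through the arrays where they were high. IFIT2, ISG20 and SAMD9 reached it on no sh-scrambled array without doxycycline, though they did on sh-FOXO1 or plasmid arrays without it. The calls of these 5 stay in the counts above but are not taken as support for the direction. A higher level per cell and more cells with the gene on cannot be told apart in bulk RNA. The mean level of 9 genes of the NF-kB response was 9.93 to 9.98 in sh-scrambled cells with doxycycline against 6.61 without it, and its part in the result was not tested.

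Among the transcription factors, IRF1 and IRF9 rose and IRF7 was not called. IRF1 was 7.97 and 7.70 in sh-scrambled cells with doxycycline, against 6.0 and 5.82 without it. The groups did not overlap, and the log2 fold change was 1.92 ± 0.10 (SE, n = 2 each, limma adjusted p = 1.8e-07). Here and below, how many of all genes tested lay apart at 2 arrays against 2 was not counted. IRF9, the DNA-binding part of the type I complex, was 8.17 and 8.02 with doxycycline against 6.77 and 6.72 without it, a log2 fold change of 1.35 ± 0.08 (adjusted p = 6.8e-07), again with no overlap. IRF7, the factor that amplifies interferon genes, was 5.97 on both arrays with doxycycline against 5.70 and 5.59 without it, a difference of 0.32 ± 0.07 that passed the test (adjusted p = 0.0027) but not the limit. A second probe set of IRF1 gave 1.36. On the remaining arrays IRF9 was 7.68 and 7.49 in sh-FOXO1 cells with doxycycline and 6.82 and 6.80 without it, and 7.21, 7.01 and 7.06 with AKT-resistant FOXO1, CDK2-resistant FOXO1 and the empty vector. IRF7 was 6.05 and 6.09 in sh-FOXO1 cells with doxycycline and 5.92 and 5.86 without it, and 6.03 on the AKT-resistant array. IRF1 was 6.39, 6.58 and 6.33 on the AKT-resistant, CDK2-resistant and empty vector arrays, all between the 2 sh-scrambled groups.

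Of 8 tested sensors of nucleic acid and OAS enzymes, DDX60 and IFI16 rose, the call of DDX60 being among those not taken as support above. DDX60, a helicase that acts with the RNA sensor RIGI, was 6.50 and 6.58 with doxycycline against 4.98 and 5.39 without it (1.35 ± 0.12, adjusted p = 7.8e-06). IFI16 was 11.10 and 11.18 against 10.14 and 10.12 (1.01 ± 0.08, adjusted p = 3.6e-06), but a further probe set gave 0.64, and without replicate 2 of sh-scrambled cells with doxycycline the value was 0.97, within the limit. For both genes the lower doxycycline array lay above the higher array without it. EIF2AK2, the kinase PKR that stops translation upon binding double-stranded RNA, was 9.33 and 9.40 with doxycycline against 8.99 and 9.10 without it, a difference of 0.32 ± 0.09 (adjusted p = 0.01) that was within the limit. Its other probe sets gave -0.20 and -0.18, so its direction rests on the probe set. EIF2AK2 was 8.99 and 9.18 in sh-FOXO1 cells with doxycycline and 9.02 and 8.92 without it, and 8.49, 8.81 and 8.53 on the AKT-resistant, CDK2-resistant and empty vector arrays. IFIH1 (MDA5) at 0.45, OAS1 at 0.44 and RIGI at 0.43 were not called, OAS3 and OASL were -0.18 and 0.10, and the other probe sets of RIGI gave 1.23 and 1.19.

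The IFIT family, whose members take part in binding viral RNA, was split. IFIT3 was 8.29 and 8.31 with doxycycline against 6.90 and 6.79 without it (1.46 ± 0.08, adjusted p = 2.5e-07), and IFIT2 6.42 and 6.69 against 5.45 and 5.45 (1.11 ± 0.11, adjusted p = 1.4e-05). Their second probe sets gave smaller values, 0.90 for IFIT3 and 0.29 for IFIT2. Without replicate 2 of sh-scrambled cells with doxycycline IFIT2 was 0.97, within the limit. The call of IFIT2 is also among those not taken as support above. IFIT1 lay on the other side of 0, with 5.81 and 5.86 in sh-scrambled cells with doxycycline and 6.21 and 6.09 without it (-0.32 ± 0.07, adjusted p = 0.0044), and IFIT5 was 0.35, both within the limit.

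All 3 IFITM genes, which restrict virus entry at membranes, rose. IFITM1 was 9.41 and 9.48 with doxycycline against 7.73 and 7.58 without it (1.79 ± 0.09, adjusted p = 2.2e-07). IFITM2 and IFITM3 had log2 fold changes of 1.56 and 1.54. The IFITM genes are near-identical paralogs whose probe sets can read each other, so the 3 values are not separate measurements with certainty. BST2 (tetherin), which holds budding virions at the cell surface, was not called at 0.58.

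The guanylate-binding proteins, GTPases strongly induced by interferon gamma, also rose. GBP2 was 7.36 and 7.48 with doxycycline against 5.77 and 5.90 without it (1.58 ± 0.09, adjusted p = 3.4e-07). GBP3 was 9.03 and 9.19 against 7.45 and 7.64 (1.56 ± 0.09, adjusted p = 3.9e-07), and GBP1 8.40 and 8.65 against 6.80 and 7.15 (1.55 ± 0.13, adjusted p = 5.3e-06). None of the 3 overlapped between the groups, for which the share over all genes tested was not counted. Close paralogs may share signal here too, and the other probe sets of GBP1 and GBP2 that passed the filter gave 1.59, 1.79 and 2.41. MX2, the dynamin-like GTPase that restricts retroviruses, was -0.20 and not called.

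Of 3 tested genes of the ISG15 system none was called higher (limma) and HERC5 fell. ISG15 was 8.65 and 8.59 with doxycycline against 8.52 and 8.54 without it (0.09 ± 0.07, adjusted p = 0.27). HERC5, the ligase that attaches ISG15 in human cells, was the only one of the 38 genes called lower, with 5.79 and 5.83 in sh-scrambled cells with doxycycline and 6.71 and 7.02 without it (-1.05 ± 0.11, adjusted p = 2.2e-05). Without sh-scrambled replicate 2 its log2 fold change was -0.90, within the limit. USP18, the protease that removes ISG15 and dampens the receptor, was 6.97 and 7.00 against 7.79 and 7.86 (-0.84 ± 0.07, limma adjusted p = 3.8e-06), short of the limit. Its 4 doxycycline arrays lay below every other array of the study. In 28.3% of all genes tested they lay below the 4 shRNA arrays without it, and the share below every other array was not counted.

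Of the remaining effectors, ISG20 and SAMD9L changed most. Their calls and that of SAMD9 are among those not taken as support above, because of the filter. ISG20, an exonuclease that degrades RNA, was 7.56 and 7.63 with doxycycline against 5.54 and 5.56 without it, a log2 fold change of 2.04 ± 0.07 (4.13-fold, adjusted p = 2e-08). Its second probe set gave 2.88. SAMD9L, an antiviral factor that inhibits translation, was 7.14 and 7.09 against 5.27 and 5.22 (1.87 ± 0.06, adjusted p = 1.5e-08), and its relative SAMD9 rose by 1.05, or by 0.98 without replicate 2 of sh-scrambled cells with doxycycline and 0.99 without sh-scrambled replicate 1, within the limit. PARP14, a mono-ADP-ribosyltransferase, rose by 1.17 and PARP9, its partner, was not called at 0.78. IFI44 was -0.43 on the probe set used and 1.10 on a second one, so it has no settled direction. The other genes were not called, namely IFI35 (0.55), IFI6 (0.53), the nuclear body protein SP110 (0.29), IFI44L (0.28), the phospholipid scramblase PLSCR1 (0.17) and CMPK2, a mitochondrial nucleotide kinase (-0.31). Below the filter, XAF1, which promotes apoptosis, was 5.30 and 5.38 with doxycycline against 4.97 and 4.83 without it.

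In sh-FOXO1 cells EWS-FLI1 knockdown raised 10 of the 38 genes past the same limit and lowered none, against 6.06% and 5.48% of all genes tested. The median log2 fold change was 0.39, against -0.05 over all genes. With no limit on the fold change 22 were higher and 3 lower by limma, and 26 had an unadjusted p under 0.05 in either direction. FOXO1 itself was 0.86 ± 0.11 higher with doxycycline in these cells (adjusted p = 8.6e-05), against 1.36 ± 0.11 in sh-scrambled cells.

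The genes that rose were SAMD9L (1.62 ± 0.06), ISG20 (1.46 ± 0.07), SAMD9 (1.23 ± 0.10), IFIT3 (1.20 ± 0.08), IFIT2 (1.15 ± 0.11), DDX60 (1.12 ± 0.12), GBP3, GBP1, IFITM1 and IRF1 (1.01 to 1.08), with limma adjusted p of 9.5e-05 or less. DDX60, SAMD9 and SAMD9L reached the filter on no sh-FOXO1 array without doxycycline. Their calls stay in the count but are likewise not taken as support for the direction. Other probe sets that passed the filter gave 0.24 for IFIT2, 0.87 for IFIT3, 0.92 and 1.12 for GBP1, 1.13 for IRF1 and 2.08 for ISG20. Leaving out 1 array brought GBP1 to 0.96, IRF1 to 0.97 (either one without replicate 2 of sh-FOXO1 cells with doxycycline) and IFITM1 to 0.88 (without sh-FOXO1 replicate 2), within the limit. SAMD9L was 6.79 and 6.80 in sh-FOXO1 cells with doxycycline against 5.17 and 5.18 without it, and ISG20 7.35 and 7.51 against 5.95 and 5.98, with no overlap in either. SAMD9, a negative regulator of cell growth as well as an antiviral factor, was 6.25 and 6.54 against 5.13 and 5.21. IFIT2 was 6.73 and 6.72 against 5.45 and 5.70, IFIT3 8.13 and 8.27 against 6.95 and 7.05, and DDX60 6.51 and 6.64 against 5.47 and 5.44, and all 3 were likewise apart. HERC5 was -0.90 and USP18 -0.93 here, both within the limit and both at an adjusted p of 7.4e-05 or less.

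Whether the knockdown effect differed between sh-FOXO1 and sh-scrambled cells was tested as an interaction, called past a difference of 0.7. The effect was smaller in sh-FOXO1 cells for 4 of the 38 genes and larger for none, against 2.24% of all genes tested in the lower and 1.19% in the higher direction. With no limit 13 were lower and 1, CMPK2, higher by limma, and 23 had an unadjusted p under 0.05. The median difference was -0.24 against 0.00 over all genes. FLI1 was not lowered to the same level in both: with doxycycline it stayed higher in sh-FOXO1 than in sh-scrambled cells. FLI1 and FOXO1 each had an unadjusted limma p under 0.05 for the interaction, and neither passed the adjusted p. The part of the FLI1 difference in the interaction of the 38 genes was not tested.

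GBP2 had the largest difference. It was 6.28 and 6.45 in sh-FOXO1 cells with doxycycline and 5.76 and 5.88 without it, while sh-scrambled cells had 7.36 and 7.48 with doxycycline and 5.77 and 5.90 without it. On this probe set the 2 cell groups thus had nearly the same level without doxycycline (0.29 higher in sh-FOXO1 cells on the second), and the difference of fold changes was -1.04 ± 0.13 (limma adjusted p = 0.0011), or -1.64 on its second probe set. IRF1 was 7.38 and 7.45 with and 6.40 and 6.42 without doxycycline in sh-FOXO1 cells, against 7.97 and 7.70 with and 6.0 and 5.82 without it in sh-scrambled cells (-0.92 ± 0.14, adjusted p = 0.0041). On this IRF1 probe set the sh-FOXO1 arrays were thus lower with doxycycline and higher without it. On a second IRF1 probe set they were lower by 0.33 with doxycycline and by 0.10 without it, and the difference of fold changes was only -0.23.

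IFITM1 and IFITM2 were the other 2 genes. IFITM1 was 9.40 on both sh-FOXO1 arrays with doxycycline and 8.52 and 8.26 without it, against 9.41 and 9.48 with and 7.73 and 7.58 without it in sh-scrambled cells. The cells differed without doxycycline and hardly with it, and the difference of fold changes was -0.78 ± 0.13 (adjusted p = 0.0073). For IFITM2, at 10.24 and 10.34 with and 9.50 and 9.40 without doxycycline in sh-FOXO1 cells, against 10.57 and 10.41 with and 9.0 and 8.85 without it in sh-scrambled cells, it was -0.72 ± 0.12 (adjusted p = 0.0074). Leaving out sh-FOXO1 replicate 1 brought IFITM1 to -0.65, and leaving out sh-FOXO1 replicate 1, sh-FOXO1 with doxycycline replicate 1, sh-scrambled with doxycycline replicate 1 or sh-scrambled replicate 2 brought IFITM2 to between -0.67 and -0.64, all within the limit. BST2 (-0.68), IFITM3 (-0.66) and PARP14 (-0.63) were just within the limit, and CMPK2 was 0.66.

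FOXO1 silencing in the presence of doxycycline lowered 1 of the 38 genes past a limit of 0.7 and raised none. This limit was met by 2.00% of all genes tested as lower and by 2.37% as higher. The median log2 fold change was -0.16 against 0.00 over all genes, and with no limit 13 were lower and 2 higher by limma, with 20 at an unadjusted p under 0.05. GBP2 was the gene called, with 6.28 and 6.45 in sh-FOXO1 cells against 7.36 and 7.48 in sh-scrambled cells (-1.06 ± 0.09, adjusted p = 6e-05), and its second probe set gave -1.35. IRF9 was 7.68 and 7.49 against 8.17 and 8.02 (-0.51 ± 0.08, adjusted p = 0.0018), within the limit and without overlap. IFI35, a partner of NMI in the interferon response, was 6.07 and 6.04 against 6.58 and 6.58 (-0.53 ± 0.07, adjusted p = 0.00052). GBP1 lay on the other side of 0, at 9.09 and 9.25 against 8.40 and 8.65 (0.64 ± 0.13, adjusted p = 0.0054). These arrays with doxycycline are also those of the knockdown comparison, so the values are set side by side and not counted as separate evidence. FLI1 also stayed higher in sh-FOXO1 than in sh-scrambled cells with doxycycline (limma adjusted p under 0.05), and its part here was not tested.

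FOXO1 silencing without doxycycline, with EWS-FLI1 present, raised 2 of the 38 genes past 0.7 and lowered none, against 2.72% and 1.50% of all genes tested. The median was 0.14 against 0.01 over all genes, and with no limit 12 were higher and 6 lower by limma, with 20 at an unadjusted p under 0.05. GBP1 was 8.05 and 8.21 in sh-FOXO1 cells against 6.80 and 7.15 in sh-scrambled cells (1.15 ± 0.13, adjusted p = 0.00027), with no overlap. IFITM1 was 8.52 and 8.26 against 7.73 and 7.58 (0.73 ± 0.09, adjusted p = 0.00054), and without sh-FOXO1 replicate 1 or sh-scrambled replicate 2 it was 0.61 or 0.66, within the limit. Below the limit, OAS1, which makes the second messenger of RNase L, was 0.58, while IFIT1 was -0.64, HERC5 -0.61 and IFI44 -0.58, each with an adjusted p of 0.0027 or less. Of the genes named here, GBP1, IFITM1, IFIT1, HERC5 and IFI44 hold a match to the response element, and OAS1 holds none. The part of the motif in these differences was not tested.

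The FOXO1 mutants were measured on 1 array each, so their differences from the empty vector array have no replicate check and no test. Past a limit of 0.7, AKT-resistant FOXO1 was higher in 1 of the 38 genes and lower in 1, against 1.37% and 1.11% of all genes, and CDK2-resistant FOXO1 was higher in 5 and lower in 2, against 1.48% and 0.878%. The median difference was 0.00 for AKT-resistant FOXO1 and 0.28 for CDK2-resistant FOXO1, against -0.02 and -0.01 over all genes. Both are set against the same empty vector array, and FOXO1 itself was 8.30 on the AKT-resistant array and 7.06 on the CDK2-resistant array.

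With AKT-resistant FOXO1, GBP2 was 6.25, against 5.04 with the empty vector, a difference of 1.21 (1.20 on the second probe set), the empty vector array lying below the filter. IFI44L was 5.17 against 6.55 (-1.38), below the filter and the lowest level of this gene on any array. Next in size above the empty vector were BST2 at 4.94 against 4.43, IFIT3 at 7.61 against 7.11, PARP9 at 6.13 against 5.71 and GBP3 at 8.57 against 8.31, all within the limit. Below it were GBP1 at 7.26 against 7.92, SAMD9 at 5.10 against 5.69, IFI44 at 8.12 against 8.51 and IFITM1 at 6.38 against 6.70. GBP2 and GBP1, which both rose upon EWS-FLI1 knockdown, thus lay on opposite sides of the empty vector.

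With CDK2-resistant FOXO1, 3 of the 5 genes above the limit, OAS1, IFIH1 and OAS3, belonged to the sensors and OAS enzymes. OAS1 was 5.87 against 4.67 with the empty vector (1.20), IFIH1 7.75 against 6.86 (0.90) and OAS3 7.15 against 6.37 (0.78). BST2 was 5.35 against 4.43 (0.92) and IFIT1 5.70 against 4.86 (0.85). IRF7 was 5.55 against 6.32 (-0.77) and CMPK2 5.94 against 6.67 (-0.72). The next lowest differences, -0.15 for IFIT5 (7.85 against 8.0), -0.10 for SP110 (7.86 against 7.97) and -0.08 for IFI16 (10.20 against 10.27), were small. OAS1, BST2 and IFIT1 lay below the filter on the empty vector array, and IRF7 and BST2 on the CDK2-resistant array. BST2 was thus below it on both sides of its difference.

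Much of this depended on the 1 control array. With a mean of 3 control arrays, the empty vector array and both untreated sh-scrambled arrays, as the baseline, the CDK2-resistant array had differences of -0.02 for IFIT1, 0.14 for BST2, 0.44 for OAS3 and 0.65 for IFIH1, while OAS1 was 0.81 and GBP1 1.0. For the AKT-resistant array GBP2 was 0.68, GBP3 0.77, IFI44L -1.73, IFIT1 -0.98, IFITM1 -0.96 and IFITM3 -0.72. The control groups themselves differed for these genes, IFIT1 being 4.86 with the empty vector and 6.21 and 6.09 in sh-scrambled cells, and BST2 4.43 against 5.51 and 5.68.

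The mutants can also be compared with each other, without the empty vector. AKT-resistant FOXO1 was lower than CDK2-resistant FOXO1 past 0.7 in 10 of the 38 genes and higher in none, against 3.81% and 3.06% of all genes, with a median of -0.21 against -0.01. The 10 genes were IFI44L (5.17 against 6.83, -1.66), OAS1 (4.62 against 5.87, -1.25), GBP1 (7.26 against 8.29, -1.02), IFIH1 (-0.96), IFIT1 (-0.96), IFITM1 (-0.94), IFITM3 (-0.88), SAMD9 (-0.86), IFITM2 (-0.78) and OAS3 (-0.72). Of these, IFI44L, OAS1, IFIT1 and SAMD9 lay below the filter on the AKT-resistant array. The largest differences the other way were 0.61 for GBP2 and 0.59 for CMPK2, but the second GBP2 probe set gave 1.40, past the limit.

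**Figure D2:**
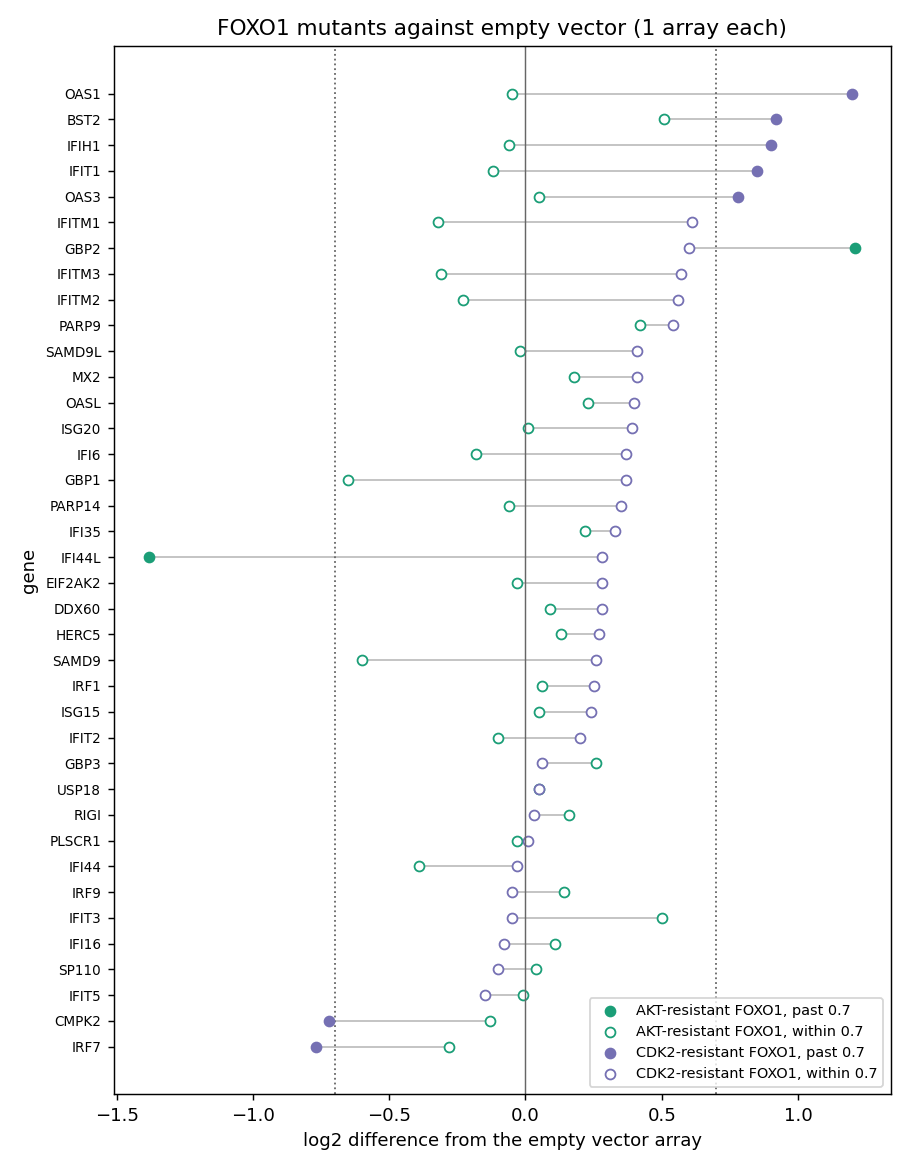
Log2 difference from the empty vector array (horizontal axis) of 38 genes (vertical axis) for AKT-resistant FOXO1 (green) and CDK2-resistant FOXO1 (purple), 1 array each, filled past the dotted lines at 0.7. OAS1, BST2, IFIH1, IFIT1 and OAS3 are past the upper line with CDK2-resistant FOXO1 only, GBP2 with AKT-resistant FOXO1 only, and IFI44L lies far to the left with AKT-resistant FOXO1.

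The genes upstream of the response were read on the same arrays. Of 21 interferon genes 18 had a probe set, and 1, IFNA17, passed the filter and was not called in any comparison. Their mean level was 3.90 to 4.02 over the arrays, below the lower quartile of every array. Of 8 tested genes of nucleic acid sensing and its adaptors, such as MAVS and TBK1, none was called in any comparison. Upon knockdown 4 of the 8 passed the limma adjusted p at any fold, all within the limit.

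Of 9 tested receptor chains and kinases, IFNGR1 and IFNGR2, the interferon gamma receptor, rose upon EWS-FLI1 knockdown. IFNGR1 was 10.12 and 10.17 in sh-scrambled cells with doxycycline against 8.81 and 8.91 without it (1.29 ± 0.07, adjusted p = 2.2e-07), and IFNGR2 10.01 and 9.99 against 9.04 and 8.95 (1.01 ± 0.07, adjusted p = 1.4e-06). In sh-FOXO1 cells the differences were 0.69 and 0.85, within the limit. IFNAR1, a chain of the type I receptor, was lower in sh-FOXO1 than in sh-scrambled cells, at 5.94 and 6.0 against 6.81 and 6.94 with doxycycline (-0.90 ± 0.08, adjusted p = 9.6e-05) and 5.88 and 5.96 against 6.60 and 6.79 without it (-0.78 ± 0.08, adjusted p = 0.00023). JAK1, JAK2, TYK2 and IFNAR2 were called in none of these comparisons.

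Interferon-induced genes outside the 47 moved alongside. Of 28 tested, 18 passed the limma adjusted p at any fold upon EWS-FLI1 knockdown (21 at an unadjusted p under 0.05). The share of all genes tested was not counted there. The median was 0.50 against -0.04 over all genes tested. Past the limit 9 rose and none fell, against 6.98% and 6.31% of all genes tested. They were the chemokines CXCL10 (3.38 ± 0.14) and CCL5 (1.82 ± 0.09), SLFN5, the checkpoint ligand CD274 (PD-L1), the immunoproteasome subunit PSMB8, HLA-B and HLA-C, UBE2L6, which carries ISG15 to its ligases, and DTX3L, the partner of PARP9. CXCL10 was 7.16 and 7.54 in sh-FOXO1 cells with doxycycline against 5.61 and 5.88 without it, and 8.10 and 8.27 against 4.89 and 4.72 in sh-scrambled cells, with an interaction of -1.77 ± 0.19 (adjusted p = 0.00064). In sh-FOXO1 cells CXCL10, CD274 and SLFN5 were called higher with doxycycline. Of 6 negative regulators, SOCS3, which blocks JAK kinases, rose by 3.0 ± 0.08 upon knockdown, with an interaction of -1.36 ± 0.11, and SOCS1 was 0.32 and not called.

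Genes of the NF-kB response, a separate inflammatory pathway, moved with the same arrays. All 9 tested (NFKBIA, TNFAIP3, NFKB1, NFKB2, RELB, ICAM1, CXCL8, IL6 and CCL2) rose upon knockdown, with a median of 2.86, and the interaction was lower for all 9, with a median of -1.77. Their mean level was 9.24 to 9.27 in sh-FOXO1 cells with doxycycline, 8.0 to 8.05 without it, 9.93 to 9.98 in sh-scrambled cells with doxycycline and 6.61 without it, and 7.19, 8.11 and 7.20 with AKT-resistant FOXO1, CDK2-resistant FOXO1 and the empty vector. The part of this response in the changes of the 38 genes was not tested.

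Markers of another cell type moved as well. Of 4 fibroblast markers, COL1A2, PDGFRA and COL1A1 rose upon knockdown (4.06, 2.91 and 1.31), and the mean of the 4 was 9.65 to 9.73 in sh-FOXO1 cells with doxycycline, 8.0 to 8.03 without it, 9.72 to 9.74 in sh-scrambled cells with doxycycline and 7.53 to 7.60 without it, and 7.72, 7.29 and 7.18 with AKT-resistant FOXO1, CDK2-resistant FOXO1 and the empty vector. Of the T cell, B cell, macrophage, endothelial and epithelial markers none was called upon knockdown. By limma, 1 B cell marker passed the adjusted p at any fold, within the limit. Of the plasmacytoid dendritic cell markers IL3RA rose by 1.26. The part of these markers in the result was not tested.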

How the data were processed

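Total RNA of 11 samples was hybridised to HG-U133 Plus 2 arrays. The authors deposited a table of log2 values with 54675 probe sets and a column for each array. They preprocessed the CEL files in R/Bioconductor, and which summarisation they used was not given in the sources used, so the log base was taken from the range of 2.6 to 14.6. Genes were named from the platform annotation with symbols updated through the gene identifier (41097 probe sets with 1 symbol, 1801 with several, 11777 with none), and each gene was read from its probe set with the highest mean.

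A linear model of 7 groups was fitted to 12299 genes with limma 3.58.1 (R 4.3.3, lmFit and eBayes, 4 residual degrees of freedom, which only the paired shRNA arrays supply), with Benjamini-Hochberg adjustment over all of them. Calls needed an adjusted p under 0.05 and a log2 difference past 1 (knockdown) or 0.7 (other comparisons). Mutant arrays were compared without a test at 0.7. The steps were tested on simulated data. The precision is limited by the number of arrays, and the median SD of a gene over a replicate pair was 0.09. Alternatives were other filters, probe sets, normalization, baselines, limits and models, a replicate block and leaving out each array.

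The genes and all lists (ligands, receptors and kinases, nucleic acid sensing, other induced genes, negative regulators, NF-kB genes, cell type markers) were chosen with earlier results of these data known. Values on every array of a comparison are given for up to 6 called genes with the largest change per direction, up to 5 per direction for each mutant, and each gene called in the interaction, and values on all arrays for IRF1, IRF7, IRF9 and EIF2AK2 (the rule also held STAT2). Other genes were named after their values were seen.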

Additional observations from a re-analysis of the deposited data

Results flagged for a closer look

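The knockdown effect differed between sh-FOXO1 and sh-scrambled cells, by a limma interaction test, in 4 of the 38 genes. The log2 fold change of sh-FOXO1 cells minus that of sh-scrambled cells was -1.04 for GBP2 (0.54 against 1.58), -0.92 for IRF1 (1.01 against 1.92), -0.78 for IFITM1 (1.01 against 1.79) and -0.72 for IFITM2 (0.84 against 1.56). GBP2 differed between sh-FOXO1 and sh-scrambled cells by -1.06 with doxycycline and -0.02 without it (-1.35 and 0.29 on its second probe set), IFITM1 by -0.04 and 0.73, and IRF1 by -0.42 and 0.50. On its second probe set IRF1 differed by -0.33 and -0.10, with an interaction of -0.23. FLI1 stayed higher in sh-FOXO1 than in sh-scrambled cells with doxycycline, and its part in these differences was not tested. No group had 4 or more arrays, so single arrays were not tested as outliers.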

How the results depend on the processing

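With no fold change limit the counts were 27 higher and 5 lower upon EWS-FLI1 knockdown, and 22 and 3 for knockdown in sh-FOXO1 cells. They were 2 and 13 for FOXO1 silencing with doxycycline, 12 and 6 without it, and 1 and 13 for the interaction. The shares of all genes tested at this setting were not counted. For CDK2-resistant FOXO1 against the empty vector, the count of higher genes was 5, but 2 with a filter at the 75th percentile, 2 with a mean of 3 control arrays (OAS1 and GBP1, which was not among the 5) and 1 with a limit of 1, and the count of lower genes was 2, but 0 under these settings and under quantile normalization. IFIT1 turned to -0.02 with the 3 control arrays, with which 4 genes were lower for AKT-resistant FOXO1. AKT-resistant against CDK2-resistant FOXO1 had 3 lower genes with a limit of 1 and 1 higher gene with the probe set of the largest interquartile range. The cause of these shifts was not tested. Leaving out 1 array at a time gave 13 to 16 higher and 0 to 1 lower genes upon knockdown, 8 to 10 higher in sh-FOXO1 cells, 0 to 1 higher and 1 lower for silencing with doxycycline, 1 to 2 higher and 0 to 1 lower without it, and 0 to 1 higher and 2 to 6 lower for the interaction (2 without sh-FOXO1 replicate 1, 6 without sh-FOXO1 replicate 2 or without sh-scrambled with doxycycline replicate 2). With the replicate number as a block in the 8 shRNA arrays, no count changed (16 and 1 upon knockdown, 10 in sh-FOXO1 cells, 4 for the interaction). The labels give no more than the number, while deviations of same-numbered arrays correlated at 0.31 to 0.57 in all 6 pairs of groups, a hint from the data that same-numbered arrays deviate together. Without _x_at probe sets, a setting chosen after seeing the data, 15 genes were higher upon knockdown and 3 lower in the interaction. IFITM2 and IFITM3, which have no other probe set, dropped out there, and RIGI was read from a probe set that gave 1.23 upon knockdown. Genes near the filter and the mutants, with 1 array each, carry the least certain values.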
